A study of Mus musculus with 9 samples.

Results

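Ribosome biogenesis genes encode the proteins that transcribe ribosomal RNA, modify and cut it, and assemble it with ribosomal proteins into subunits. A list of 38 such genes was chosen by name. A probe set is a group of short oligonucleotides that together give 1 value. Of the 38, 35 had a probe set annotated with a single gene symbol, out of 12393 genes measured on the arrays. Dkc1 and Nob1 had no such probe set, and the probe set of Mrto4 also carries the symbols of 2 pseudogenes, so these 3 genes have no value below. Where a gene had several probe sets, the one with the highest mean over all arrays was used. All 35 passed the filter on low values, which kept the 6700 genes with a mean of at least 5.67 log2, the median over probe sets.

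The cells were TAMH, a hepatocyte line from mice transgenic for TGF-alpha, labelled as C57BL/6 liver. Confluent cultures in 2 dishes per treatment received APAP (acetaminophen) at 2 mM, AMAP, its regioisomer with the hydroxyl group in the meta instead of the para position of the ring, at 2 mM, or control medium alone. They were harvested after 2, 6 and 24 h. Each of the 9 combinations was read on 1 Affymetrix mouse 430A_2 array, so that no treatment at a given time has a replicate and all same-time differences are given as values without a p. All 12 hepatocyte markers with a probe set were expressed, with albumin (Alb) and transthyretin (Ttr) among them, and none of 7 stellate cell or fibroblast markers and none of 5 endothelial markers reached the filter. Of 6 macrophage markers Cd14 did, and their summed level lay between 10.07 and 10.36 log2 in APAP, 10.07 and 10.25 in AMAP and 10.24 and 10.46 in control. Both 24 h arrays of treated cells and the 6 h APAP array stood apart. On the APAP arrays of 6 and 24 h and the AMAP array of 24 h the bacterial dap control RNA, added as a control, gave a middle probe set reading -1.72, -1.58 and -1.94 log2 relative to its 3′ probe set, against -0.60 to -0.44 on the other 6 arrays. The summed level of the cholangiocyte markers Krt19, Krt7, Sox9 and Epcam lay between 10.05 and 10.71 log2 in APAP, between 9.74 and 10.08 in AMAP and between 9.27 and 9.76 in control, with Epcam below the filter. The part of either in the results was not tested.

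Ribosomes are built in the nucleolus, where RNA polymerase I makes a long precursor that carries the small subunit RNA and most of the large subunit RNA. Small nucleolar ribonucleoproteins guide methylation (box C/D) and pseudouridylation (box H/ACA) of the precursor, a large processome cuts out the small subunit, and a chain of GTPases, helicases and scaffold proteins matures the large one. The genes are usually transcribed together in growing cells, and MYC is a well known activator of many of them. In liver, they are known for rising early when hepatocytes prepare to divide after tissue loss.

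After 2 h the ribosome biogenesis genes, all but Nop10, were higher in APAP than on both other arrays. The median difference of the 35 genes was 0.50 log2 for APAP minus control, against -0.01 for all 6700 expressed genes, and 34 of the 35 lay above 0, where 45.3% of all genes did. Of the 35, 10 were at least 1.5-fold higher (0.585 log2) and 0 were as much lower, while 3.76% of all genes were as much higher and 6.03% lower. For AMAP minus control the median was 0.08 log2 (all genes -0.01), 29 of 35 genes lay above 0 (45.1% of all genes) and 0 of 35 reached 1.5-fold either way (3.45% of all genes higher, 2.64% lower). Between the regioisomers, 1 pair of compounds compared at the same dose at 3 times, APAP minus AMAP had a median of 0.36 log2 (all genes 0.00), with 35 of 35 genes above 0 (46.6% of all genes), 3 at least 1.5-fold higher (2.55%) and 0 as much lower (4.99%). No member differed 2-fold at 2 h in any of these comparisons. Of all genes, 0.806% were 2-fold higher and 1.04% 2-fold lower in APAP than in control, 1.24% and 0.373% in AMAP than in control, and 0.403% and 1.06% in APAP than in AMAP. Cell type markers also differed at 2 h. The 12 hepatocyte markers had a median of -0.48 log2 for APAP minus control, with 2 above 0, and of -0.53 for AMAP minus control, with 0 above 0. The cholangiocyte keratins Krt19 and Krt7 were 2.11 and 1.44 log2 higher in APAP than in control, and 1.08 and 0.37 log2 higher in AMAP than in control, while Sox9 differed by 0.06 in APAP and -0.02 in AMAP. Their part in the result was not tested. RNA was taken from whole cultures, and more cells with a high level cannot be told apart from more RNA per cell.

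**Figure D1:**
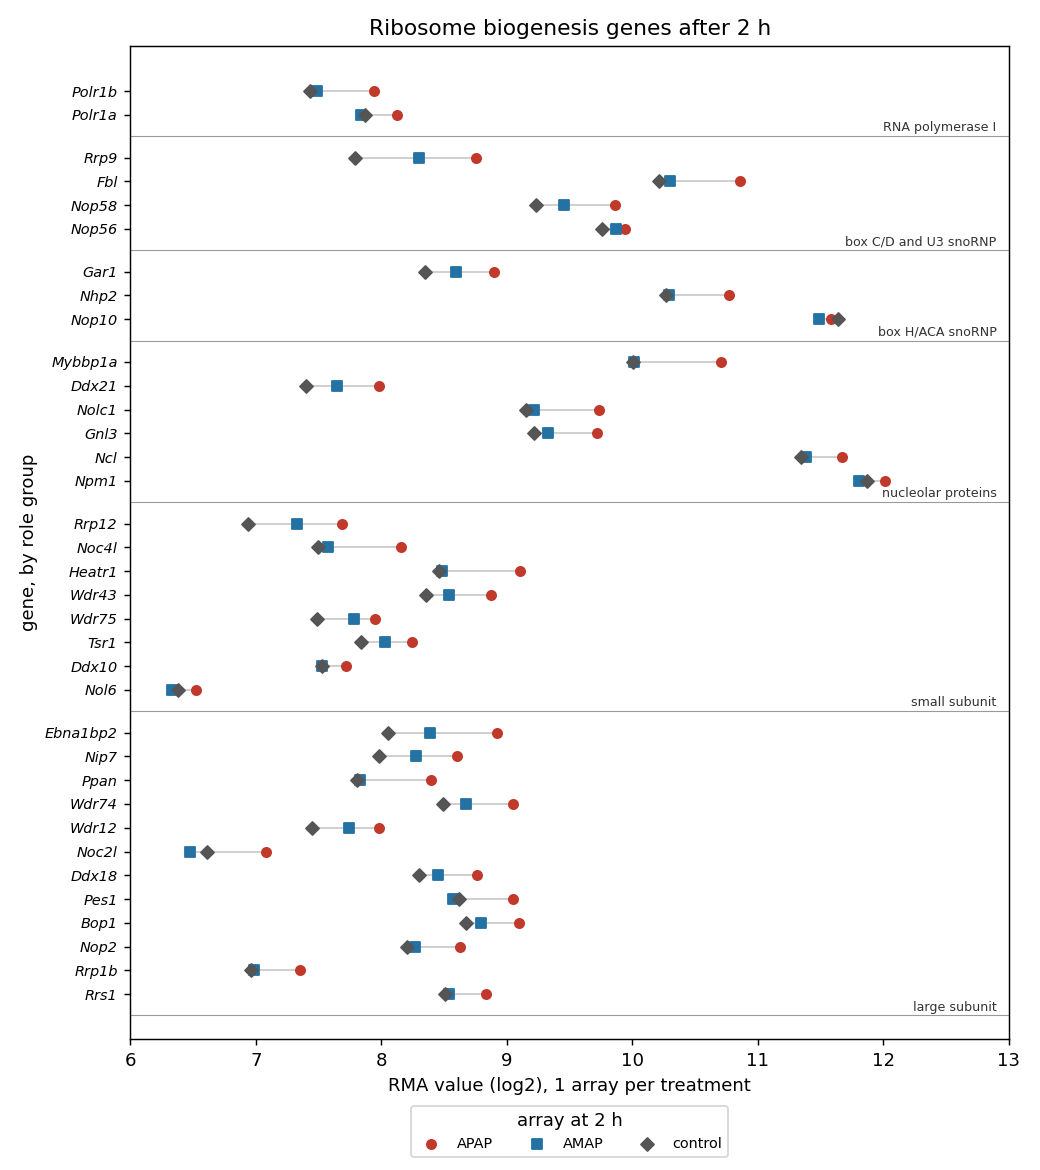
RMA values (log2, x axis) of the 35 ribosome biogenesis genes after 2 h, 1 array for each treatment, with genes down the page by role group and, within a group, by the difference between APAP and control. The APAP point lies right of the control point for 34 of 35 genes and right of the AMAP point for all 35, while most AMAP points lie close to control.

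Within the 2 h arrays APAP was the highest of the 3 for 34 of 35 genes, where 35.3% of all genes have APAP highest. Nop10 was the exception, with 11.59 in APAP, 11.49 in AMAP and 11.64 in control at 2 h. Control was the lowest array for 29 of the 35 and AMAP for the other 6, Nop10, Noc2l, Npm1, Pes1, Nol6 and Polr1a. Over all 9 arrays the 2 h APAP array held the highest value of 14 genes (10.1% of all genes) and the lowest of 0 (14.9% of all genes), and the 24 h control array held the lowest of 14 (10.3%). Measured from each gene's own mean over the 9 arrays, the 35 genes had a median of 0.30 log2 on the APAP array at 2 h, with 34 above their mean. The medians of the other arrays were -0.08 for AMAP and -0.20 for control at 2 h, 0.17 for APAP, 0.03 for AMAP and 0.08 for control at 6 h, and -0.06 for APAP, 0.00 for AMAP and -0.25 for control at 24 h. The control arrays thus differed among themselves, and the 2 h APAP array was also set against all of them. It lay above all 3 control arrays for 27 of 35 genes (24.4% of all genes), and the 2 h AMAP array did so for 4 of 35 (17.1%).

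**Figure D2:**
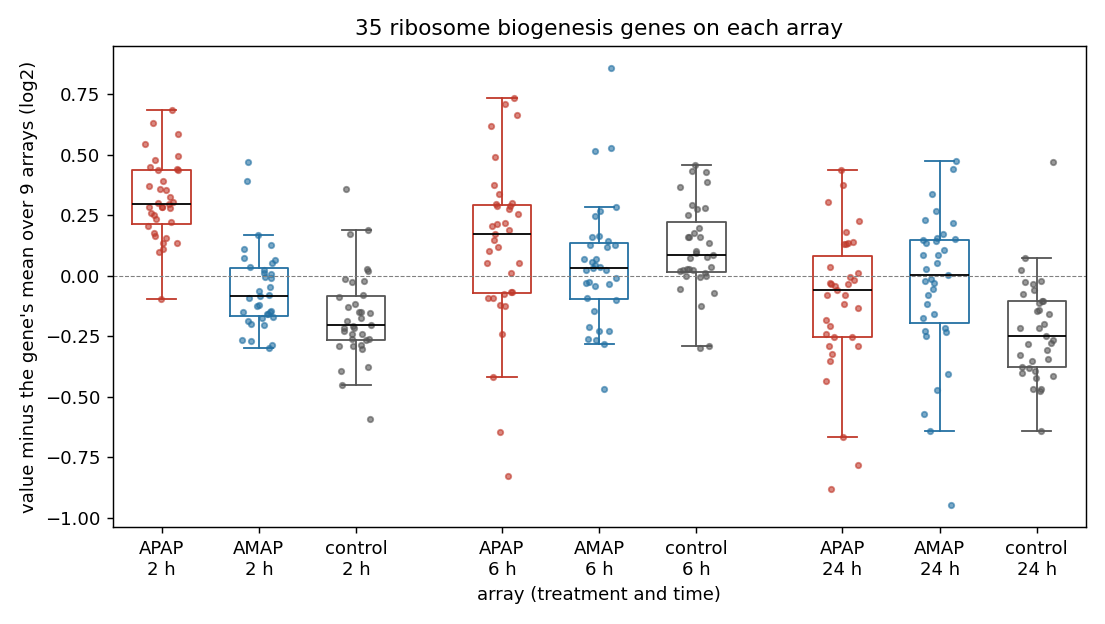
Each gene's value minus its own mean over the 9 arrays (log2, y axis) for the 35 ribosome biogenesis genes, by array, with boxes from the lower to the upper quartile, a line at the median and whiskers to the last point within 1.5 times the box height. The APAP array at 2 h has the highest median, 0.30, and the control arrays at 2 and 24 h have the lowest, -0.20 and -0.25.

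A further probe set on the array gives a second reading under the same gene symbol. Whether the probe sets of a gene read the same transcript was not tested. There were 22 further expressed probe sets for 17 of the 35 genes, while 13 had a single probe set and 7 further probe sets fell under the filter. For APAP minus control at 2 h all 22 lay above 0, with a median of 0.49 log2, and 21 had the direction of the probe set used, Nop10 being the gene whose chosen probe set ran the other way. The further Nop10 probe set read 0.13 log2 higher in APAP. For APAP minus AMAP at 2 h 21 of 22 shared the direction, and for AMAP minus control 14 did. The median gap between the 2 readings was 0.14, 0.10 and 0.12 log2 for APAP minus control, AMAP minus control and APAP minus AMAP at 2 h. Later the gap was wider, from 0.19 to 0.41 log2, and only 10 to 15 of the 22 shared the direction. Probe sets of 1 gene share the RNA sample and are no replicates.

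**Figure D3:**
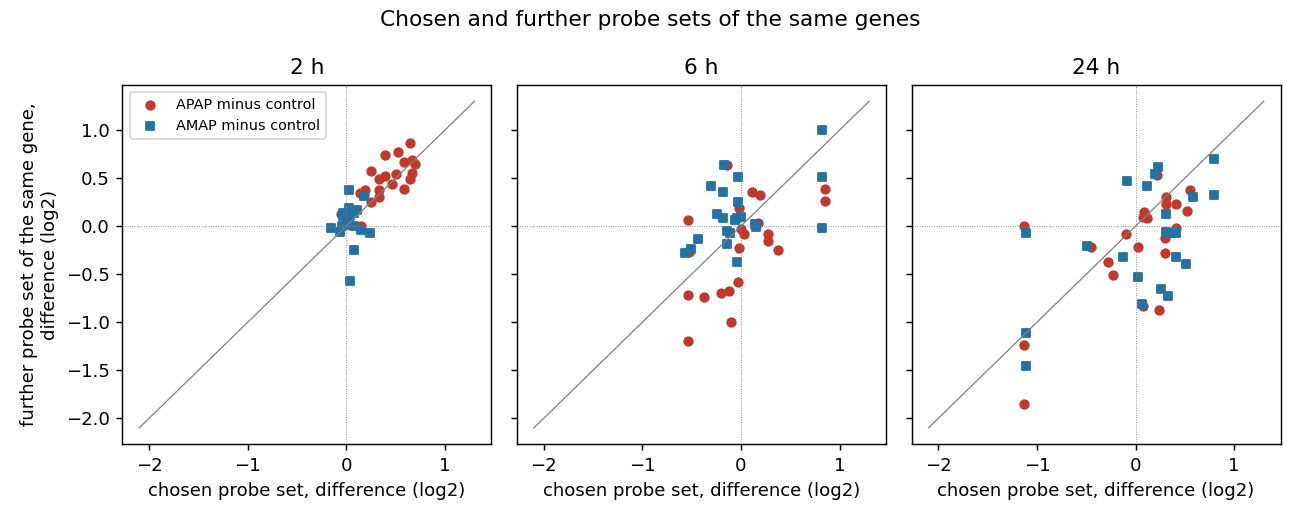
Same-time differences (log2) of the probe set used for a gene (x axis) and of each further expressed probe set of that gene (y axis) at 2, 6 and 24 h, for APAP minus control (circles) and AMAP minus control (squares), with the line of equal values. At 2 h the APAP points sit in the upper right near the line, and at 6 and 24 h points lie farther from the line.

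Since nearly all members differed in the same direction at 2 h, their promoters were read. RefSeq promoters (GRCm38.p6, 250 bases before to 50 after the start of transcription) were found for 32 of the 38 listed genes, in 36 entries, since Noc2l and Rrp1b have 2 entries and Wdr12 has 3. Each entry was searched on both strands for the E-box CACGTG, the site of MYC with MAX, for CCGGAAG, a core bound by ETS factors, and for the GC box GGGCGG, for the CCAAT box by its name, and for the TATA box as TATAAA, each searched on its own so that matches may overlap. CCGGAAG stood in 36.1% of the entries of listed genes, in 20.3% of those of expressed genes and in 8.86% of all promoters. Within 50 bases of the start it stood in 33.3% of the entries of listed genes, 12.7% of those of expressed genes and 5.21% of all promoters. The E-box stood in 13.9%, 10.7% and 7.15% of the same entries, and within 50 bases of the start in 11.1%, 4.73% and 2.92%. Over the whole entry the GC box stood in 63.9%, 66.2% and 35.7%, the CCAAT box in 30.6%, 38.2% and 37.4%, and the TATA box in 8.33%, 6.77% and 13.6%. The E-box genes were Mybbp1a, Nop2, Pes1, Tsr1 and Wdr43. Their median difference for APAP minus control at 2 h was 0.43 log2, against 0.53 for the 24 measured members whose promoter lacked it. A match is a run of letters and not a shown binding site.

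The sequences below run from 100 bases before to 30 after the start, in lower case with CCGGAAG (or its reverse complement CTTCCGG) and CACGTG in capitals. They show the members with the largest difference at 2 h (Rrp9, Ebna1bp2), that with the widest APAP lead over AMAP among those with an ETS core (Heatr1), the other members whose APAP arrays lay above all control or all AMAP arrays (Noc4l, Wdr74, Rrp1b with its 2 entries, Nop2 and Ppan), and the second gene that, like Nop2, holds both motifs (Tsr1).
Rrp9 (chr9:106477209-106477338, plus strand): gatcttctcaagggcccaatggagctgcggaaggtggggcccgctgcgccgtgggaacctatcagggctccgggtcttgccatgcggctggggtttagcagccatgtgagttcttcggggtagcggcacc
Ebna1bp2 (chr4:118620699-118620828, plus strand): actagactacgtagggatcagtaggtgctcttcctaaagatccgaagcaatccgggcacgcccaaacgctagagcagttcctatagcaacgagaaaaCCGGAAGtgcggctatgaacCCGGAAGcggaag
Heatr1 (chr13:12395275-12395404, plus strand): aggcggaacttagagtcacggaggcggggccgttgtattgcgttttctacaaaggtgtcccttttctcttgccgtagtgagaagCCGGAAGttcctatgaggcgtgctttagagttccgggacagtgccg
Noc4l (chr5:110653353-110653482, minus strand): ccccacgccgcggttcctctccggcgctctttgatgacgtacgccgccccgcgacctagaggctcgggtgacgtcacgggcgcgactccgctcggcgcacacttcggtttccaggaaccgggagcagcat
Wdr74 (chr19:8735739-8735868, plus strand): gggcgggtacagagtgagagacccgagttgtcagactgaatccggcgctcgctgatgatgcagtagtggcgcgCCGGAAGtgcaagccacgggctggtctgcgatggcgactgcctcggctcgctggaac
Rrp1b (chr17:32036062-32036191, plus strand): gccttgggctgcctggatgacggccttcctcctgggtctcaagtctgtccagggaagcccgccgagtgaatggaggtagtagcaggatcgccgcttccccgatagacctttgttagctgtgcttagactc
Rrp1b (chr17:32048185-32048314, plus strand): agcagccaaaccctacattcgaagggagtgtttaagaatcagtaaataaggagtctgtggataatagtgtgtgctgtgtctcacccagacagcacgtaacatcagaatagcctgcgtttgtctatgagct
Nop2 (chr6:125131783-125131912, plus strand): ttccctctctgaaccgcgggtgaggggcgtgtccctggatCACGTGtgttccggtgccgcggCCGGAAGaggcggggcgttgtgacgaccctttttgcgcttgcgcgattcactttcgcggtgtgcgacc
Ppan (chr9:20888075-20888204, plus strand): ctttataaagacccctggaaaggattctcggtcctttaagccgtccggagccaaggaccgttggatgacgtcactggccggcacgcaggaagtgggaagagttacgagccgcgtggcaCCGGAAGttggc
Tsr1 (chr11:74897980-74898109, plus strand): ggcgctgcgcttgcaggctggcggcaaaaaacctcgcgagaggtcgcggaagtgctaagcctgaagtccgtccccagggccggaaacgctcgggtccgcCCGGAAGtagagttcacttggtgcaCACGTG
Counted from 1 at the start, with -1 the base before it, the ETS core begins at -3 and 18 in Ebna1bp2, at -16 in Heatr1, at -27 in Wdr74, at -38 in Nop2, at 19 in Ppan and at -1 in Tsr1. The E-box begins at -60 in Nop2 and at 25 in Tsr1. Rrp9, Noc4l and both entries of Rrp1b hold neither run of letters in their 300 bases.

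RNA polymerase I transcribes the ribosomal RNA precursor, and its largest subunits are Polr1a and Polr1b. Polr1a read 8.12, 7.91 and 8.21 log2 at 2, 6 and 24 h in APAP, 7.84, 7.76 and 8.33 in AMAP and 7.87, 7.94 and 7.91 in control. Polr1b read 7.95, 7.95 and 7.58 log2 at 2, 6 and 24 h in APAP, 7.49, 7.73 and 7.65 in AMAP and 7.43, 7.93 and 7.24 in control. At 2 h both subunits were highest in APAP, with differences from control of 0.25 and 0.51 log2 and AMAP within 0.06 of control for both. At 24 h Polr1b was 0.34 log2 higher in APAP and 0.41 higher in AMAP than in control. Polr1a differed by 0.30 in APAP and 0.41 in AMAP, but one further Polr1a probe set gave -0.13 and -0.07 log2 and the other -0.27 and -0.32. At 2 h both further Polr1a probe sets were higher in APAP than in control, by 0.57 and 0.25 log2. Polr1b also differed between control arrays, by 0.50 log2 for 6 minus 2 h.

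The box C/D particle is built on the scaffold proteins Nop56 and Nop58 and the methyltransferase fibrillarin (Fbl), and Rrp9 is the protein that marks the U3 particle, which guides cuts instead of methylation. Rrp9 read 8.75, 9.00 and 8.51 log2 at 2, 6 and 24 h in APAP, 8.30, 8.17 and 8.52 in AMAP and 7.79, 8.48 and 7.92 in control. All 3 APAP arrays lay above all 3 control arrays for Rrp9, and the AMAP values overlapped control. Its difference from control at 2 h, 0.96 log2 or 1.95-fold, was the largest of the 35 in APAP, and 0.51 log2 was the largest of the 35 in AMAP. Nop58 read 9.86, 8.96 and 9.75 log2 at 2, 6 and 24 h in APAP, 9.45, 9.54 and 9.17 in AMAP and 9.23, 9.41 and 9.05 in control. It was 0.63 log2 higher in APAP than in control at 2 h and 0.70 at 24 h, and -0.45 at 6 h. Nop56 read 9.94, 9.75 and 10.03 log2 at 2, 6 and 24 h in APAP, 9.87, 9.62 and 10.02 in AMAP and 9.76, 10.12 and 9.50 in control. Its difference at 2 h was 0.18 in APAP, among the 4 smallest of the members, and 0.32 on its further probe set. Fbl lay between 10.17 and 10.86 log2 over the arrays, with 0.65 for APAP minus control and 0.08 for AMAP minus control at 2 h.

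In the box H/ACA particle Gar1, Nhp2 and Nop10 join dyskerin (Dkc1), the pseudouridine synthase, which has no value here. Gar1 read 8.89, 8.64 and 8.35 log2 at 2, 6 and 24 h in APAP, 8.60, 8.75 and 8.68 in AMAP and 8.35, 8.76 and 8.28 in control. Nhp2 read 10.77, 10.84 and 10.44 log2 at 2, 6 and 24 h in APAP, 10.29, 10.44 and 10.52 in AMAP and 10.27, 10.47 and 10.19 in control. Both were higher in APAP than in control at 2 h, by 0.55 log2 for Gar1 and 0.50 for Nhp2, while AMAP differed by 0.25 for Gar1 and 0.03 for Nhp2. Nop10 read 11.59, 11.38 and 11.42 log2 at 2, 6 and 24 h in APAP, 11.49, 11.49 and 11.22 in AMAP and 11.64, 11.49 and 11.35 in control. On this probe set Nop10 was the only member whose 2 h difference between APAP and control was below 0. The further Nop10 probe set read 9.07 log2 in APAP, 10.16 in AMAP and 10.07 in control at 6 h, where the APAP array was the lowest by a wide margin. A further Nhp2 probe set read 0.54 log2 for APAP minus control at 2 h but -0.88 at 24 h, where the probe set used read 0.24.

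The nucleolar proteins include nucleolin (Ncl) and nucleophosmin (Npm1), abundant histone and RNA chaperones, Nolc1, a chaperone of small nucleolar particles, the GTPase nucleostemin (Gnl3), the helicase Ddx21 and Mybbp1a, a nucleolar regulator of transcription. Mybbp1a read 10.70, 10.35 and 10.08 log2 at 2, 6 and 24 h in APAP, 10.01, 10.07 and 10.08 in AMAP and 10.01, 10.18 and 9.96 in control. The 2 h APAP value was the highest of the 9, 0.70 log2 above control and 0.69 above AMAP, the widest gap between the regioisomers of any member at 2 h. The further Mybbp1a probe set gave 0.65 and 0.63 log2 for the same 2 differences. Npm1 read 12.01, 11.73 and 11.82 log2 at 2, 6 and 24 h in APAP, 11.80, 11.82 and 12.01 in AMAP and 11.87, 11.85 and 11.74 in control. On this probe set its difference of 0.14 log2 at 2 h was the second smallest of the 35 for APAP minus control. The further Npm1 probe set gave 0.35 log2 at 2 h, -0.68 at 6 h and -0.83 at 24 h.

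Ncl read 11.67, 10.16 and 10.32 log2 at 2, 6 and 24 h in APAP, 11.38, 11.52 and 10.35 in AMAP and 11.35, 10.70 and 11.46 in control. At 2 h the 3 arrays lay within 0.33 log2, and at the later times Ncl and Wdr75 had the widest differences of the members. For AMAP minus control it was 0.82 log2 at 6 h and -1.11 at 24 h, and for APAP minus control -0.54 at 6 h and -1.14 at 24 h. Its low values fall on the 3 arrays that stand apart by the dap ratio, and its control value at 6 h was also lower than at 2 and 24 h. One further Ncl probe set read 10.18, 8.34 and 7.98 log2 at 2, 6 and 24 h in APAP, 9.79, 10.05 and 8.72 in AMAP and 9.69, 9.05 and 9.83 in control. Another read 8.21, 6.02 and 6.36 log2 at 2, 6 and 24 h in APAP, 7.26, 7.73 and 6.14 in AMAP and 7.83, 7.22 and 7.60 in control. One more further probe set gave same-time differences from -0.07 to 0.30 log2 only, and the low values of the 3 arrays do not appear in it. Nolc1, Gnl3 and Ddx21 were higher in APAP than in control at 2 h by 0.58, 0.50 and 0.58 log2, and in AMAP than in control by 0.07, 0.11 and 0.24. Over the 9 arrays Nolc1 lay between 9.12 and 9.73, Gnl3 between 9.11 and 9.82 and Ddx21 between 7.40 and 7.98 log2.

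The small subunit is matured by the processome, to which Heatr1, Wdr43 and Wdr75 (the part that joins early, to the nascent precursor) and Nol6 belong, and by Noc4l, Rrp12, Tsr1 and the helicase Ddx10. Nob1, the nuclease of the last cut, has no value. Heatr1 read 9.11, 8.96 and 8.32 log2 at 2, 6 and 24 h in APAP, 8.48, 8.71 and 8.62 in AMAP and 8.46, 8.96 and 8.42 in control. Rrp12 read 7.69, 7.21 and 7.33 log2 at 2, 6 and 24 h in APAP, 7.33, 7.45 and 7.42 in AMAP and 6.94, 7.72 and 6.92 in control. Heatr1 was 0.65 log2 higher in APAP than in control and 0.62 higher than in AMAP at 2 h, with AMAP and control 0.03 apart. The further Heatr1 probe set gave 0.86 for APAP minus control, 0.49 for APAP minus AMAP and 0.37 for AMAP minus control at 2 h. Rrp12 was 0.75 log2 higher in APAP and 0.39 higher in AMAP than in control at 2 h, and its control value at 6 h lay close to the 2 h APAP value. Noc4l read 8.16, 8.60 and 7.83 log2 at 2, 6 and 24 h in APAP, 7.57, 7.61 and 8.31 in AMAP and 7.49, 7.75 and 7.52 in control. All 3 APAP values lay above all 3 control values for Noc4l, with differences of 0.66, 0.86 and 0.31 log2 at 2, 6 and 24 h, and AMAP joined APAP at 24 h (0.79). One further Noc4l probe set kept the APAP values above all control values, and in the other the 24 h APAP value lay below the 6 h control value.

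Wdr75 read 7.95, 6.67 and 6.43 log2 at 2, 6 and 24 h in APAP, 7.79, 8.17 and 6.37 in AMAP and 7.49, 7.68 and 7.29 in control. Its difference was -1.51 log2 for APAP minus AMAP at 6 h, the lowest same-time value of any member, -1.01 for APAP minus control at 6 h, -0.86 at 24 h and -0.92 for AMAP minus control at 24 h, all on the 3 arrays that stand apart. Its further probe set did not reach the filter. Nol6 read 6.52, 6.83 and 7.06 log2 at 2, 6 and 24 h in APAP, 6.33, 6.15 and 7.09 in AMAP and 6.38, 6.71 and 6.51 in control. Nol6 ran the other way, being highest on the arrays of AMAP at 24 h and APAP at 6 and 24 h. Ddx10 read 7.71, 7.44 and 7.42 log2 at 2, 6 and 24 h in APAP, 7.53, 7.53 and 7.31 in AMAP and 7.53, 7.97 and 7.40 in control. Its 2 h difference was 0.19 log2 in APAP, while at 6 h the differences from control were -0.53 in APAP and -0.44 in AMAP. The further Ddx10 probe set gave 0.38 in APAP at 2 h, and -0.27 in APAP and -0.13 in AMAP at 6 h. Wdr43 was 0.52 and Tsr1 0.40 log2 higher in APAP than in control at 2 h, and over the arrays Wdr43 lay between 8.21 and 9.04 and Tsr1 between 7.35 and 8.38 log2.

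The large subunit group holds the complex of Pes1, Bop1 and Wdr12, the ribosomal RNA methyltransferase Nop2, the helicase Ddx18, Rrs1, which helps load the smallest ribosomal RNA, and the assembly factors Ebna1bp2, Nip7, Noc2l, Ppan, Rrp1b and Wdr74. Ebna1bp2 read 8.92, 8.49 and 8.35 log2 at 2, 6 and 24 h in APAP, 8.39, 8.36 and 7.93 in AMAP and 8.05, 8.36 and 8.19 in control. Its 2 h difference of 0.87 log2 (1.83-fold) in APAP was second to Rrp9, with 0.34 in AMAP, and the 6 and 24 h arrays stood within 0.42 log2 of each other at each time. Pes1 read 9.05, 8.78 and 8.48 log2 at 2, 6 and 24 h in APAP, 8.57, 8.91 and 9.00 in AMAP and 8.62, 8.78 and 8.73 in control. Wdr12 read 7.98, 7.99 and 7.72 log2 at 2, 6 and 24 h in APAP, 7.74, 7.86 and 7.70 in AMAP and 7.44, 7.81 and 7.34 in control. The 3 partners differed from control by 0.43 (Pes1), 0.42 (Bop1) and 0.54 log2 (Wdr12) in APAP at 2 h, and by -0.05, 0.12 and 0.30 in AMAP. Bop1 lay between 8.67 and 9.11 log2 over the arrays.

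Nop2 read 8.62, 9.13 and 8.77 log2 at 2, 6 and 24 h in APAP, 8.27, 8.19 and 8.57 in AMAP and 8.21, 8.63 and 7.82 in control. All 3 APAP values of Nop2 lay above all 3 AMAP values, and its difference from control was 0.42, 0.50 and 0.95 log2 at 2, 6 and 24 h. AMAP read -0.44 log2 at 6 h and 0.75 at 24 h relative to control. Ppan read 8.40, 8.59 and 8.24 log2 at 2, 6 and 24 h in APAP, 7.83, 8.13 and 7.98 in AMAP and 7.81, 8.30 and 7.63 in control. The APAP values of Ppan also lay above all AMAP values, and AMAP at 2 h matched control within 0.02 log2. Wdr74 read 9.05, 9.65 and 9.08 log2 at 2, 6 and 24 h in APAP, 8.67, 8.68 and 9.21 in AMAP and 8.49, 8.96 and 8.67 in control. Its APAP values lay above all control values, with 0.56, 0.69 and 0.40 log2 for APAP minus control at 2, 6 and 24 h. Rrp1b, between 6.85 and 7.41 log2 over the arrays, was the gene whose APAP values lay above all control and all AMAP values, by 0.40, 0.28 and 0.41 log2 relative to control at 2, 6 and 24 h. Neither further Rrp1b probe set showed this separation. They gave 0.74 and 0.52 log2 for APAP minus control at 2 h, and -0.15 and -0.08 at 6 h.

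Noc2l read 7.08, 6.94 and 6.35 log2 at 2, 6 and 24 h in APAP, 6.48, 6.61 and 6.86 in AMAP and 6.61, 6.34 and 6.48 in control. It was 0.61 log2 higher in APAP than in AMAP at 2 h, and -0.13 for AMAP minus control. Nip7 read 8.60, 8.28 and 7.32 log2 at 2, 6 and 24 h in APAP, 8.27, 8.37 and 7.95 in AMAP and 7.98, 8.13 and 8.05 in control. APAP minus control was 0.62 log2 at 2 h and -0.72 at 24 h, and the 24 h APAP value was the lowest of the 9. Ddx18 read 8.76, 8.26 and 7.89 log2 at 2, 6 and 24 h in APAP, 8.45, 8.61 and 7.85 in AMAP and 8.30, 8.46 and 8.34 in control. Rrs1 read 8.83, 8.24 and 8.22 log2 at 2, 6 and 24 h in APAP, 8.54, 8.99 and 8.23 in AMAP and 8.51, 8.73 and 8.01 in control. Ddx18 and Rrs1 were higher in APAP than in control at 2 h, by 0.46 and 0.32 log2, and differed by -0.20 and -0.49 at 6 h, while at 24 h Ddx18 differed by -0.46 and Rrs1 by 0.21.

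At 6 h the list had no common direction. The median was 0.02 log2 for APAP minus control (all genes -0.05), with 18 of 35 above 0 (45% of all genes), and -0.10 for AMAP minus control (all genes -0.10), with 10 above 0 (34.2%). For APAP minus AMAP it was 0.14 (all genes 0.07), with 22 above 0 (54.7%). The 22 further expressed probe sets had a median of -0.11 for APAP minus control, with 8 above 0. Their median was 0.08 for AMAP minus control, with 13 above 0. For APAP minus AMAP they had -0.16, with 8 above 0, where the probe sets used for the same 17 genes had 0.16. Noc4l, Wdr74 and Noc2l were at least 1.5-fold higher in APAP than in control (7.76% of all genes) and Wdr75 as much lower (16.1%). In AMAP, Ncl was as much higher (4.07%) and 0 of 35 as much lower (4.48%). Between APAP and AMAP, 5 members were at least 1.5-fold higher in APAP, Noc4l, Wdr74, Nop2, Rrp9 and Nol6 (16.6% of all genes), and Wdr75, Ncl and Rrs1 as much lower (17.2%). At 2-fold, Wdr75 was lower in APAP than in control (5.25% of all genes) and Wdr75 and Ncl lower in APAP than in AMAP (7.73%), while 0 of 35 were lower in AMAP than in control (0.179%) and 0 were higher in any of the 3 comparisons (0.896%, 0.925% and 2.81% for APAP and AMAP minus control and APAP minus AMAP). Of these 6 h counts at 1.5-fold, no members' share lay far above that of all genes. The 3 of 35 higher in APAP than in control were close to the 7.76% of all genes, and the other shares lay below.

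At 24 h the medians of the probe sets used and of the further ones differed in sign relative to control. With the probe sets used, the median was 0.16 log2 for APAP minus control (all genes 0.12), with 26 of 35 above 0 (60.4% of all genes), and 0.31 for AMAP minus control (all genes 0.10), with 27 above 0 (59.7%). The 22 further expressed probe sets had medians of -0.05 for APAP minus control, with 9 above 0, and -0.07 for AMAP minus control, with 8 above 0. Averaged over each gene's probe sets, the 35 genes had a median of 0.07 for APAP minus control (all genes 0.10) and 0.20 for AMAP minus control (all genes 0.08). For APAP minus AMAP it was -0.03 with the probe sets used (all genes 0.02), with 13 above 0 (52.2%). At least 1.5-fold higher than control were Nop2, Nop58, Ppan and Rrp9 in APAP (13.3% of all genes) and Noc4l, Nop2, Rrp9 and Nol6 in AMAP (7.88%). As much lower were Ncl, Wdr75 and Nip7 in APAP (9.67%) and Ncl and Wdr75 in AMAP (7.94%). Nop58 was higher in APAP than in AMAP (7.87%) and Nip7 lower (6.66%). At 2-fold, Ncl was lower than control in APAP (3.85% of all genes) and in AMAP (2.64%) and 0 members were higher (2.76% in APAP, 0.522% in AMAP), and between APAP and AMAP 0 were higher (1.48%) or lower (1.4%). Both treated arrays of 24 h are among the 3 that stand apart.

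**Figure D4:**
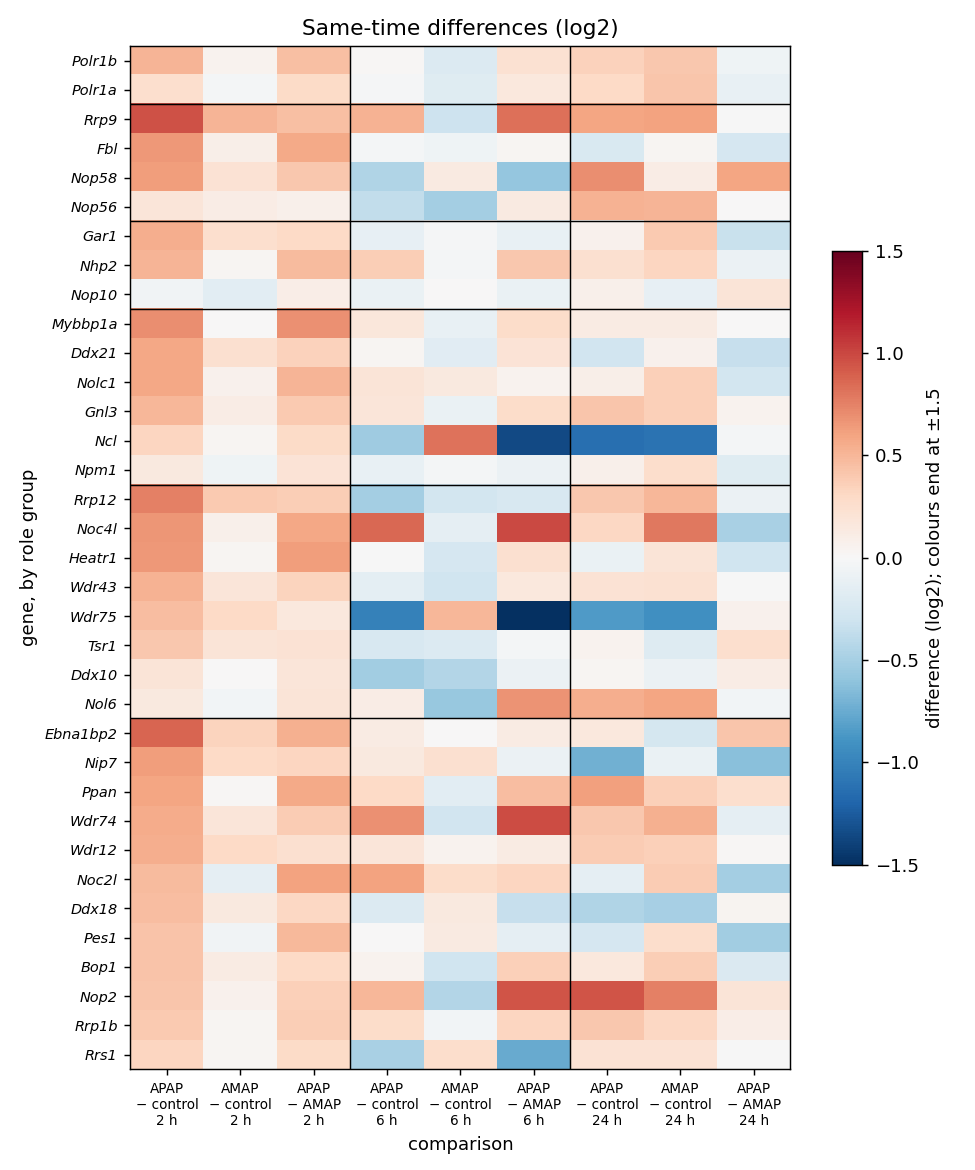
Same-time differences (log2, colour) of the 35 ribosome biogenesis genes, by role group, for each pair of treatments at 2, 6 and 24 h. The column of APAP minus control at 2 h is red for all genes but Nop10, the AMAP column beside it is pale, and at 6 and 24 h Ncl and Wdr75 are the darkest blue cells while Rrp9, Noc4l, Wdr74 and Nop2 hold the darkest red ones.

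Control arrays also differed by time in culture. In control medium 31 of 35 members were higher at 6 h than at 2 h, where 60.1% of all genes were, with a median of 0.31 log2 (all genes 0.07). The 22 further expressed probe sets had a median of 0.11, with 15 above 0, where the probe sets used for the same 17 genes had 0.20. At 1.5-fold 3 were higher (3.46% of all genes), Rrp12 at 0.78 and Rrp9 and Wdr43 at 0.69 each, and Ncl was lower at -0.65 (2.61%). For the 24 h minus the 6 h control array 3 of 35 lay above 0 (35.2% of all genes), with a median of -0.29 log2 (all genes -0.09). For 24 minus 2 h 13 lay above 0 (41.9%), with a median of -0.07 (all genes -0.02). In APAP the order over time was another one, with 5 of 35 members above 0 for 24 minus 2 h (59% of all genes) and a median of -0.36 log2 (all genes 0.11). The 6 h APAP array lay between them, with a median of -0.19 relative to 2 h (all genes 0.05). In AMAP the median was 0.12 log2 for 6 minus 2 h (all genes -0.01) and 0.14 for 24 minus 2 h (all genes 0.08). The APAP arrays of 6 and 24 h and the AMAP array of 24 h are the 3 that stand apart. Their part in these differences over time was not tested. With the probe sets used, the differences between control arrays at 2 and 6 h are thus of the size of many treatment differences. For 18 members the 6 h APAP array still lay above all 3 control arrays (37.9% of all genes), as did the 24 h APAP array for 8 (40.8%), the 6 h AMAP array for 9 (18.9%) and the 24 h AMAP array for 12 (38.2%).

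Only a fit over all times offers a test. limma with treatment and time as a block over the 9 arrays called 0 of 6700 genes in each contrast at an adjusted p under 0.05, and so 0 of 35 members. At an unadjusted p under 0.05 it marked 514 genes for APAP minus control (7.67%), 30 for AMAP minus control (0.448%) and 285 for APAP minus AMAP (4.25%), and among the members 5, 0 and 1. The 5 were all higher in APAP. Rrp9 had a shared difference from control of 0.69 (95% confidence interval 0.19 to 1.19), with an unadjusted p of 0.0118 and an adjusted p of 0.633 in limma, and it was higher in APAP at 3 of 3 times. Ppan had 0.50 (95% confidence interval 0.11 to 0.89), with an unadjusted p of 0.0184 and an adjusted p of 0.633 in limma. Nop2 had 0.62 (95% confidence interval 0.10 to 1.15), with an unadjusted p of 0.0248 and an adjusted p of 0.633 in limma. Wdr74 and Noc4l had shared differences of 0.55 and 0.61 log2. Between the regioisomers Ppan had 0.43 (95% confidence interval 0.03 to 0.82), with an unadjusted p of 0.0361 and an adjusted p of 0.869 in limma, higher in APAP at 3 of 3 times, and Nop2 had 0.50 with an interval of -0.02 to 1.02.

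Over the list the shared differences had a median of 0.21 log2 for APAP minus control (all genes 0.01), 0.07 for AMAP minus control (-0.01) and 0.14 for APAP minus AMAP (0.03). Members above 0 at all 3 times numbered 15 of 35 for APAP minus control (15.7% of all genes), 4 for AMAP minus control (4.61%) and 7 for APAP minus AMAP (12% of all genes). All 3 APAP arrays lay above all 3 control arrays for 4 members, Rrp9, Noc4l, Wdr74 and Rrp1b (6% of all genes), and above all 3 AMAP arrays for 3, Nop2, Ppan and Rrp1b (3.79%). The AMAP and control arrays were separated in this way for 0 members (1.15% of all genes above, 2.42% below). Without the 2 h arrays the median shared difference for APAP minus control was 0.11 log2 and 10 of 35 members turned sign, and for APAP minus AMAP it was 0.05 (all genes 0.05). Without the 24 h arrays APAP minus AMAP had 0.27, and without the 6 h arrays AMAP minus control had 0.17 and APAP minus control 0.33. Leaving out the 3 arrays that stand apart leaves APAP with its 2 h array alone, so the 0.48 log2 for APAP minus control then rests on 1 APAP array. The fit takes treatment by time as its error, and a difference at 2 h alone widens that error.

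Genes of the same pathway outside the list were read for comparison. The wider list held 124 further ribosome biogenesis genes, of which 103 had a probe set and 100 were expressed. At 2 h 91 of the 100 were higher in APAP than in control (45.3% of all genes), with a median of 0.34 log2, and 18 were at least 1.5-fold higher (3.76%) and 0 as much lower (6.03%). For AMAP minus control 65 were higher (45.1%), with a median of 0.06. For APAP minus AMAP 88 were higher (46.6%), with a median of 0.28, 8 of them at least 1.5-fold higher (2.55%) and 2 as much lower (4.99%). The 36 further small subunit factors had a median of 0.37 log2 for APAP minus control, the 37 large subunit factors 0.36, the 7 factors of small nucleolar particle assembly 0.56 and the 10 subunits and partners of the RNA exosome 0.32. The 10 further polymerase I subunits and factors stood apart from these, with a median of 0.00 and 5 above 0.

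Among these further genes, Bysl, a small subunit assembly factor, read 8.60 in APAP, 7.92 in AMAP and 7.76 in control log2 at 2 h, and Rrp7a, another one, 8.72 in APAP, 8.27 in AMAP and 7.95 in control. Rrp8, a nucleolar methyltransferase, read 6.37 in APAP, 5.78 in AMAP and 5.59 in control, and Nop16, a large subunit factor, 9.50 in APAP, 8.67 in AMAP and 8.80 in control. In each of these 4 the APAP array was the highest of the 2 h arrays and AMAP lay closer to control. Rrp8 differed by 0.79 log2 for APAP minus control at 2 h, but its control arrays differed more among themselves. They gave 1.02 log2 for 6 minus 2 h and -1.64 for 24 minus 6 h, the latter the lowest of all expressed genes. The 2 h control value of Rrp8 also lay under the cut that the filter sets for gene means. Naf1, an assembly factor of box H/ACA particles, read 7.45 in APAP, 6.90 in AMAP and 6.51 in control, and Ruvbl1, an ATPase that helps assemble box C/D particles, 8.56 in APAP, 7.76 in AMAP and 7.93 in control. The exosome cofactors Mphosph6 and Mtrex, an RNA helicase, were 0.83 and 0.23 log2 for APAP minus control and 0.43 and -0.46 for AMAP minus control. Of the promoter selectivity factors of polymerase I, Taf1d read 6.79 in APAP, 8.23 in AMAP and 6.88 in control and Taf1a 5.73 in APAP, 6.38 in AMAP and 5.82 in control log2 at 2 h. Both were higher in AMAP than in APAP or control, Taf1d by 1.34 log2 relative to control and with -1.44 for APAP minus AMAP, where all 35 genes of the list lay above 0.

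Ribosomal proteins themselves, the parts that the pathway assembles, had a median of 0.02 log2 at 2 h in each of the 3 comparisons over 43 expressed genes. Of the 81 ribosomal protein genes listed, 45 had a probe set with a single symbol. Rps6 read 6.94 in APAP, 6.78 in AMAP and 5.89 in control log2 and was the highest of the 43 relative to control in both compounds. The 2 h control value of Rps6 was also below those of 6 and 24 h, by 0.61 and 0.78 log2, the largest such rises of the 43. Rpl12 read 6.95 in APAP, 6.61 in AMAP and 7.20 in control and was the lowest relative to control in both compounds. Between the compounds Rps25 was the highest for APAP minus AMAP, at 0.50, and Rps9 the lowest, at -0.21. At 6 h the ribosomal proteins had a median of -0.23 log2 for APAP minus control (all genes -0.05), on an APAP array that is among the 3 that stand apart. The 12 expressed genes of RNA polymerase III, which makes transfer RNA and the smallest ribosomal RNA, had medians at 2 h of 0.07 for APAP minus control, -0.03 for AMAP minus control and 0.16 for APAP minus AMAP. The polymerase III subunit Polr3d was 0.57 in APAP and 0.44 in AMAP relative to control, and its repressor Maf1 -0.39 and -0.57.

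**Figure D5:**
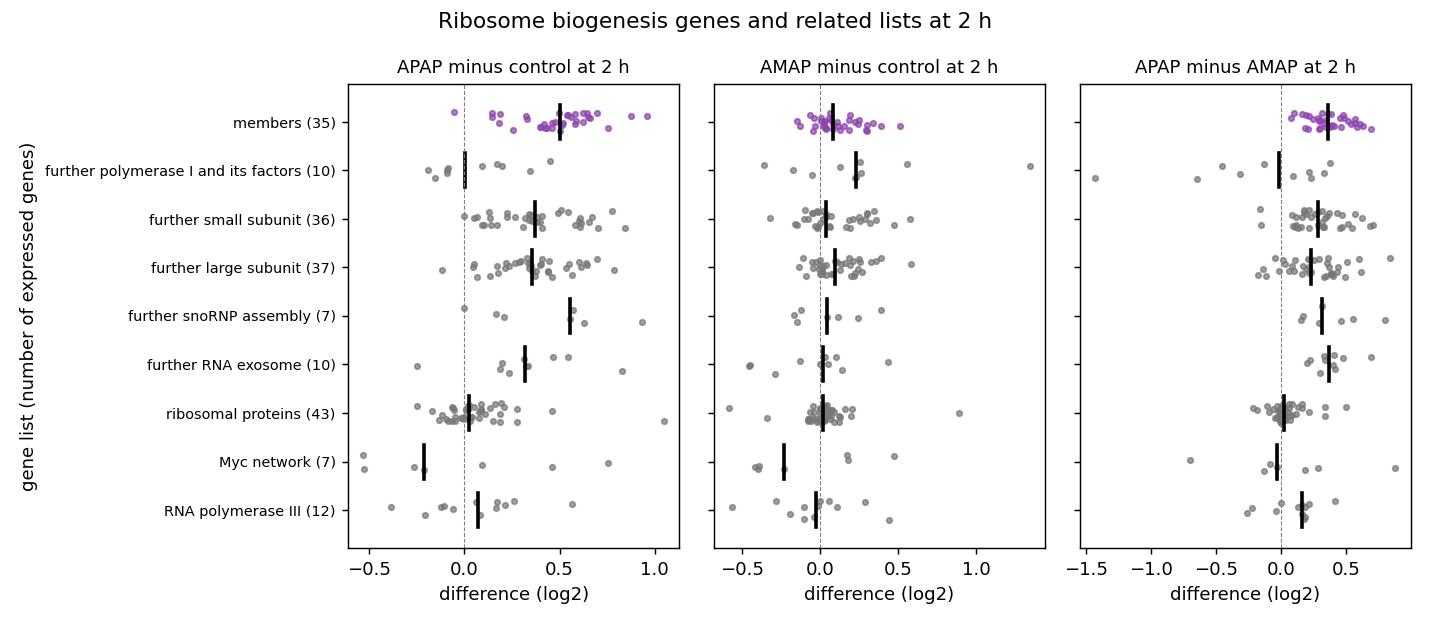
Differences at 2 h (log2, x axis) of single expressed genes, as points, and list medians, as bars, for the 35 ribosome biogenesis genes and for further lists of the pathway, with the number of expressed genes in brackets. For APAP minus control the bar lies at 0.50 for the 35 genes, at 0.32 to 0.56 for the further small subunit, large subunit, assembly and exosome lists, and near 0 for further polymerase I genes, ribosomal proteins and polymerase III genes.

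MYC and its relatives are regulators of this pathway, and 7 of their 10 genes were expressed, all but Mycn, Max and Mxd1. Myc read 9.49, 7.93 and 8.55 log2 at 2, 6 and 24 h in APAP, 9.21, 9.29 and 8.93 in AMAP and 8.74, 9.25 and 8.32 in control. It was higher than control at 2 h in both compounds, by 0.76 log2 in APAP and 0.47 in AMAP, and was -1.32 for APAP minus control at 6 h. At 6 h the list of 35 differed by a median of 0.02 for APAP minus control. A part of Myc or its relatives in the values of the list was not tested. Mycl, a paralogue of Myc, read 6.37 in APAP, 5.50 in AMAP and 5.91 in control log2 at 2 h. The antagonists Mxi1, Mxd4, Mxd3 and Mnt, which pair with MAX in place of MYC, differed at 2 h by -0.53, -0.53, -0.21 and -0.26 log2 for APAP minus control and by 0.17, -0.40, -0.39 and -0.23 for AMAP minus control, so that all 4 were lower in APAP and all but Mxi1 lower in AMAP. Mlx, a MAX-like partner protein, differed by 0.09 in APAP and 0.18 in AMAP.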

How the data were processed

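RNA of TAMH cultures, in 2 dishes per treatment, was measured on 9 arrays, 1 per treatment and time. The deposited log2 values, 1 per probe set and array, come from RMA as run in Affymetrix Expression Console by the submitters' processing notes. Its version and whether 1 run covered all arrays are not given in the sources used. Since RMA equalises intensity distributions, shifts of total RNA are hidden, and dim probe sets show compressed differences. Of 22690 probe sets, 64 were controls; platform annotation gave 1 symbol for 20380, several for 691 and none for 1555. Groups came from the sample titles.

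Same-time differences of 2 arrays were counted at 1.5-fold. With R 4.3.3 and limma 3.58.1, treatment was fitted beside a block for time, with 4 residual degrees of freedom (median residual SD 0.253 log2) and Benjamini-Hochberg adjustment over 6700 genes. In simulated arrays, 200 of 6700 genes were shifted by the same amount on every APAP array. The limma fit found 0% of those changed by 0.5 log2, 51% by 1 and 90.5% by 2. A change at 2 h alone was not simulated, so these rates do not describe it. Nothing states that cultures of different times are independent preparations, so p-values measure the spread between these arrays.

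Members, lists and tests were chosen with earlier results of these data known. Values of all 9 arrays are printed for the 4 highest and lowest members of each comparison at 2 h, the 3 highest and lowest at 6 and 24 h and the 2 of each role group with the widest range. Of each wider list and the polymerase III list, 2 genes with the largest 2 h difference are named, with the extreme ribosomal proteins and the expressed Myc network. Alternatives were another filter, mean of probe sets, cyclic loess, median centring, a 2-fold threshold, other variance priors, no time block, and leaving out times or the 3 arrays apart.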

Additional observations from a re-analysis of the deposited data

Results flagged for a closer look

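Opposite directions at different times drew attention to 2 members, and in neither was the difference between the times tested, since each rests on single arrays. Nip7 differed by 0.62 log2 for APAP minus control at 2 h and by -0.72 at 24 h. Ncl differed by 0.82 log2 for AMAP minus control at 6 h and by -1.11 at 24 h. From 2 to 6 h Ncl changed by -0.65 log2 in control and by 0.14 in AMAP. The 24 h values of both lie on arrays that stand apart by the dap ratio, whose part was not tested.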

How the results depend on the processing

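The fit pairs arrays by time, and no further pairing was possible because each treatment and time has 1 array. Each list median of a same-time comparison stayed within the residual SD of 0.253 log2 under every filter, probe set and normalization alternative. Dropping the filter could not move a list median, since all 35 members pass it, and changed only the median of all genes. Without the filter, all genes had a median of 0.10 for APAP minus control at 6 h, above the list median of 0.02. For APAP minus AMAP at 6 h it was 0.23 for all genes and 0.14 for the list. For APAP minus control at 24 h it was 0.17 and 0.16. At 2 h the list median ranged from 0.48 to 0.54 for APAP minus control and from 0.34 to 0.38 for APAP minus AMAP. At 6 h its sign changed between alternatives, from -0.02 to 0.10 for APAP minus control and from -0.07 to 0.14 for APAP minus AMAP. For AMAP minus control at 6 h it ran from -0.10 to 0.005. Without the 3 arrays that stand apart, with 1 residual degree of freedom and APAP left with its 2 h array alone, the median shared difference was 0.48 for APAP minus control (0.21 with all arrays) and 0.43 for APAP minus AMAP (0.14), both resting on that 1 APAP array. Without the 2 h arrays it was 0.11 for APAP minus control and 0.05 for APAP minus AMAP. For AMAP minus control it was -0.003 without the 24 h arrays (0.07). limma called 0 members under each alternative. At 2-fold the counts of members higher were 0 in all 9 comparisons, against 10 and 3 at 2 h (APAP minus control, APAP minus AMAP), 3, 1 and 5 at 6 h and 4, 4 and 1 at 24 h at 1.5-fold, and of those lower 1 in APAP and 1 in AMAP relative to control at 24 h (3 and 2 at 1.5-fold) and 0 for APAP minus AMAP at 24 h (1). Median centring gave 5 higher for APAP minus AMAP at 2 h, 5 for APAP minus control at 6 h, 2 in each compound relative to control at 24 h and 0 for APAP minus AMAP at 24 h. Cyclic loess gave 2 for AMAP minus control at 6 h and 2 for each compound relative to control at 24 h. The mean of all probe sets gave 0 higher for AMAP minus control at 6 h, and of members lower 2 for APAP minus control and 5 for APAP minus AMAP at 6 h, 1 for APAP minus control and 0 for APAP minus AMAP at 24 h. The cause of these differences was not tested. With 1 array a group, no difference at a single time can be set against replicate error.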
